A study of Mus musculus with 8 samples.

Results

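The apelin and adrenomedullin systems were followed through 6 genes, Apln, Aplnr, Adm, Calcrl, Ramp2 and Ramp3, of the 20408 genes found in any library. The genes were taken by symbol, with no measured value in the rule, but with earlier results of these data known. They were read in the cells with at least 1 unique molecular identifier (UMI) of Pecam1. This gene encodes the CD31 antigen on which the cells had been sorted. In GENCODE annotation of mouse genome GRCm38, Adm lies on chromosome 7 at 110627661-110629820 (plus strand), Apln on chromosome X at 48025146-48034853 (minus strand) and Aplnr on chromosome 2 at 85136225-85139923 (plus strand). Calcrl lies on chromosome 2 at 84330626-84425411 (minus strand), Ramp2 on chromosome 11 at 101246028-101259546 (plus strand) and Ramp3 on chromosome 11 at 6658521-6677475 (plus strand), and all 6 are protein-coding.

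Tumour endothelial cells (tumour ECs), sorted as live CD45- CD31+ cells, were profiled by 10x Chromium 3′ single-cell RNA sequencing in 8 libraries. The spontaneous tumours arose in female MMTV-PyMT mice, in which the mouse mammary tumour virus promoter drives the polyoma middle T antigen in mammary epithelium and treatment began at 9 weeks of age. The implanted tumours grew from dissociated MMTV-PyMT tumour cells that had been cultured for 2 days and placed with Matrigel in the mammary fat pad of female FVB hosts aged 8 to 9 weeks. Both received an intratumoral (i.t.) injection of the STING agonist cGAMP (14 µg in 70 µl) or the same volume of PBS, and tumours were taken 3 h later. Each of the 4 groups, named by tumour type and injection, had 2 libraries. The strain was given as c57bl/6 in the sample labels and as FVB in the methods, and was not settled. Cells of 2 mice entered each group, but nothing tied a library to a mouse. A p-value below therefore measures the spread between libraries, which may be technical in part.

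Of 8204 deposited cells, 7159 held Pecam1, with 601 to 1529 per library. Library totals ran from 7863535 to 16506086 UMIs. The median Pecam1 cell held 9523 to 14707.5 UMIs in 7 libraries but 3049 in implanted cGAMP 1, where 37.9% of these cells were under 2000 UMIs against 3.28% to 10.6% elsewhere. The EC gene Cdh5 was found in 83.2% to 97.3% of Pecam1 cells per library and the leukocyte gene Ptprc, which encodes CD45, in 0.166% to 5.63%. Summed levels of 7 epithelial markers, in CPM as defined below, ran from 87.9 to 723, highest in implanted cGAMP 1, and none of these markers was at 0 in any library. Of 28 library pairs, 5 shared cell barcodes, at most 3 per pair.

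Apelin is a secreted peptide made by sprouting and hypoxic endothelium, and its G protein-coupled receptor Aplnr marks growing capillaries and veins. Adrenomedullin is a vasodilator peptide that preserves endothelial barriers and is needed for lymphatic development. It binds Calcrl, which becomes an adrenomedullin receptor only when a receptor activity-modifying protein, Ramp2 or Ramp3, carries it to the surface and fixes its ligand preference.

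Promoters of 4 members, Apln, Adm, Calcrl and Ramp3, were in the RefSeq table of GRCm38.p6, while Aplnr and Ramp2 were not. The 250 bases before the start annotated by RefSeq are printed for Adm and Calcrl, which moved in opposite directions after cGAMP in both tumour types, and for Ramp3, whose direction differed between tumour types. For Calcrl and Ramp3 the RefSeq start lies within the gene as placed by GENCODE above, so that part of each stretch is inside that gene. Capitals mark the hypoxia response core GCGTG or its reverse CACGC, and TATAA or its reverse TTATA.
Adm, chr7:110627407-110627656, plus strand: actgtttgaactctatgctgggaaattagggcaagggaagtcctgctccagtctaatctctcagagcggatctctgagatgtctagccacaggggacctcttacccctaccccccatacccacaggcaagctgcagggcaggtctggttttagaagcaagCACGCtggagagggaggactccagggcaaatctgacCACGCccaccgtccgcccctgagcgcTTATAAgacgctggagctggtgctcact
Calcrl, chr2:84425267-84425516, minus strand: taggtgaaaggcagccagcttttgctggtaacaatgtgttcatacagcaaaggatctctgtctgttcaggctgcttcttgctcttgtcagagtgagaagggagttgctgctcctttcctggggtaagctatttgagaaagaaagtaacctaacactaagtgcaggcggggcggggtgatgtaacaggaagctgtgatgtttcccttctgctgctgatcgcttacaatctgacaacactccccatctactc
Ramp3, chr11:6658283-6658532, plus strand: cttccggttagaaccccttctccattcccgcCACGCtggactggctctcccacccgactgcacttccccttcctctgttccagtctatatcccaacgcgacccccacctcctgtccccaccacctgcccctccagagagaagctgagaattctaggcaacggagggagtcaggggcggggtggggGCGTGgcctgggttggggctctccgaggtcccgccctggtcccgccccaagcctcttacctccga
Searched on both strands, GCGTG stood in 28.2% of 32851 mouse promoters of the same length, TATAA in 22.8%, ACGTG in 16.6% and the interferon response core GAAANNGAAA in 2.98%. The Adm promoter held GCGTG at 2 places, 90 and 54 bases before the start, and 2 overlapping matches to TATAA at 28 and 27 bases. The Ramp3 promoter held GCGTG at 219 and 65 bases before the start and no TATAA. Calcrl and Apln held none of these 4 motifs, and neither ACGTG nor GAAANNGAAA was in any of the 4 promoters.

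Levels are given in CPM, the UMIs of a gene per 1000000 UMIs of the same cell, averaged over Pecam1 cells, and log2 fold changes (log2FC) as differences of log2(CPM + 1) with their standard errors (SE). The first question of the design was what i.t. cGAMP changed within each tumour type. A limma fit over 10424 genes and all 8 libraries gave Benjamini-Hochberg adjusted p-values, and a gene was called at an adjusted p under 0.05. All 6 members passed the filter on low values. In spontaneous tumours, 3 of the 6 members were called after cGAMP (Adm higher, Calcrl and Ramp3 lower), beside 12.7% of all genes tested. In implanted tumours all 6 were called (Adm, Apln and Ramp3 higher; Aplnr, Calcrl and Ramp2 lower), beside 25% of all genes. Adm rose and Calcrl, its receptor, fell in both. The median log2FC of all genes was -0.10 in each tumour type, so the scale itself lay slightly below 0. In these pooled cells, fewer cells of a type and less RNA per cell cannot be told apart.

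**Figure D1:**
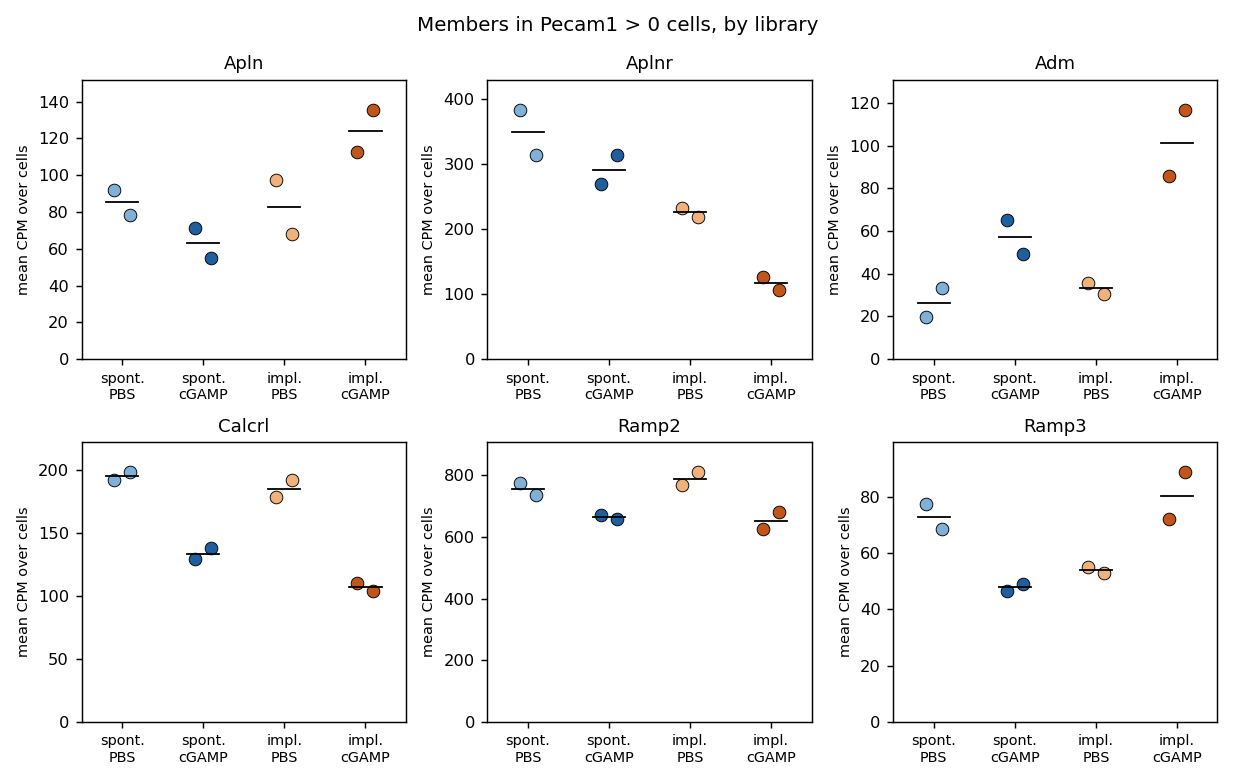
Mean CPM of each member over Pecam1 > 0 cells, 1 panel per gene, with 1 point per library and a line at the mean of the 2 libraries of each group. Adm lay higher and Calcrl lower in all 4 cGAMP libraries than in the PBS libraries of the same tumour type. Ramp3 and Apln lay lower after cGAMP in spontaneous and higher in implanted tumours. The spontaneous Apln change and the difference of the Apln responses were not called.

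Adm, the adrenomedullin peptide gene, was at 19.7 and 33.2 CPM in the spontaneous PBS libraries and at 65.1 and 49.1 CPM after cGAMP. In implanted tumours it was at 35.6 and 30.6 CPM after PBS and at 85.8 and 117 CPM after cGAMP. The highest PBS library of each tumour type lay under its lowest cGAMP library. The rise was a log2FC of 1.11 (SE 0.24, limma adjusted p = 0.0168) in spontaneous and 1.57 (SE 0.24, adjusted p = 0.00154) in implanted tumours, and the 2 rises did not differ beyond their error (difference 0.46, SE 0.34, adjusted p = 0.601). The implanted call held under every alternative, while the spontaneous call was lost without spontaneous PBS 1 (log2FC 0.75, adjusted p = 0.0965) or spontaneous cGAMP 1 (0.91, adjusted p = 0.134), and with no filter on low values (1.11, adjusted p = 0.0743). The summed level of 8 lymphatic markers, none at 0, was 475 and 660 CPM in the implanted PBS libraries and 1770 and 1809 CPM after cGAMP, against 491 and 1086 CPM, then 591 and 854 CPM, in spontaneous tumours. Lymphatic-like cluster 7 had the highest median Adm level of any cluster. It was 5.6% and 3.83% of Pecam1 cells in implanted PBS and 4.84% and 7.95% in implanted cGAMP libraries. In spontaneous tumours it was 1.55% and 3.49%, then 3.28% and 2.89%, so the groups overlapped in both tumour types. The part of the number of such cells in the pooled rise was not tested.

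Apln, the apelin peptide gene, was at 92.2 and 78.1 CPM in spontaneous PBS and at 71.4 and 54.9 CPM in spontaneous cGAMP libraries. In implanted tumours it was at 97.4 and 67.9 CPM after PBS and at 113 and 136 CPM after cGAMP. Groups did not overlap in either tumour type, with the cGAMP libraries lower in spontaneous and higher in implanted tumours. Only the implanted rise was called (log2FC 0.60, SE 0.18, limma adjusted p = 0.0414). The spontaneous log2FC of -0.43 was not (SE 0.18, adjusted p = 0.154). The difference of the 2 responses was 1.03 (SE 0.26, adjusted p = 0.126) and was not called. The implanted call was lost without implanted PBS 2 (log2FC 0.34, adjusted p = 0.28) or implanted cGAMP 2 (0.46, adjusted p = 0.157), and narrowly without spontaneous PBS 1 (adjusted p = 0.0533) or spontaneous PBS 2 (adjusted p = 0.0524). It was also lost in all deposited cells (0.57, adjusted p = 0.0872) and with no filter on low values (0.60, adjusted p = 0.117).

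Aplnr, the apelin receptor gene, was at 384 and 314 CPM in spontaneous PBS and at 269 and 314 CPM in spontaneous cGAMP libraries. It was at 233 and 218 CPM in implanted PBS and at 126 and 106 CPM in implanted cGAMP libraries. The spontaneous groups met at 314 CPM, whereas both implanted cGAMP libraries were the lowest of all 8. The implanted fall was a log2FC of -0.95 (SE 0.12, limma adjusted p = 0.000635) and was called under every alternative, whereas the spontaneous value was -0.26 (SE 0.12, adjusted p = 0.199). The difference of the responses was -0.70 (SE 0.17, adjusted p = 0.12).

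Calcrl, the receptor shared by adrenomedullin and calcitonin gene-related peptide, was at 192 and 198 CPM in spontaneous PBS and at 129 and 138 CPM in spontaneous cGAMP libraries. In implanted tumours it was at 179 and 192 CPM after PBS and at 110.4 and 104 CPM after cGAMP. All 4 PBS libraries lay above all 4 cGAMP libraries, and libraries of a group differed little. It fell by 0.54 on the log2 scale (SE 0.08, limma adjusted p = 0.00232) in spontaneous and by 0.79 (SE 0.08, adjusted p = 0.000173) in implanted tumours. Both calls held under every alternative, leaving out each library in turn included, and the difference of the falls was -0.24 (SE 0.11, adjusted p = 0.391).

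Ramp2, the partner that makes Calcrl the main adrenomedullin receptor of blood and lymphatic vessels, was at 775 and 736 CPM in spontaneous PBS and at 673 and 657 CPM in spontaneous cGAMP libraries. In implanted tumours it was at 768 and 810.1 CPM after PBS and at 626 and 679.9 CPM after cGAMP. Again all 4 PBS libraries lay above all 4 cGAMP libraries, but the shifts were small, with a log2FC of -0.18 (SE 0.07, limma adjusted p = 0.123) in spontaneous and -0.27 (SE 0.07, adjusted p = 0.0206) in implanted tumours. The implanted call was lost with median-of-ratios scaling (log2FC -0.18, adjusted p = 0.122), which moved the median of all genes to near 0, and without implanted PBS 1 (adjusted p = 0.0508), implanted PBS 2 (log2FC -0.23, adjusted p = 0.138) or implanted cGAMP 1 (-0.21, adjusted p = 0.0859). It was also lost in cells drawn to 2000 UMIs (-0.22, adjusted p = 0.123), with summed UMIs (-0.16, 0.0531) and with no filter on low values (-0.27, 0.0501).

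Ramp3, the other adrenomedullin partner of Calcrl, was at 77.5 and 68.7 CPM in spontaneous PBS and at 46.5 and 49.2 CPM in spontaneous cGAMP libraries. In implanted tumours it was at 55.2 and 53.1 CPM after PBS and at 72.1 and 88.9 CPM after cGAMP. The cGAMP libraries were thus the lower pair in spontaneous and the higher pair in implanted tumours, with no overlap in either. The log2FC was -0.60 (SE 0.12, limma adjusted p = 0.0102) in spontaneous and 0.56 (SE 0.12, adjusted p = 0.00759) in implanted tumours. Ramp3 was the only member whose responses differed between tumour types by the test of the difference itself (1.15, SE 0.16, adjusted p = 0.0241), beside 0.662% of all genes.

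The pooled Ramp3 values rested in part on a cluster of shallow cells, described below, which held 53.1% of the Ramp3 level of implanted cGAMP 1, against 0.8% to 31.1% elsewhere. Outside that cluster the spontaneous log2FC was -0.41 (limma adjusted p = 0.146), the implanted one 0.52 (adjusted p = 0.0556), and the Ramp3 difference was 0.93 (adjusted p = 0.162), while the Aplnr difference was then called (-0.80, adjusted p = 0.0442). With UMIs summed over cells in place of the mean CPM, the Ramp3 difference was 1.29 (adjusted p = 0.114) and the spontaneous log2FC -0.64 (adjusted p = 0.0627), and with no filter on low values the difference was 1.15 (adjusted p = 0.148). Its call was also lost without spontaneous PBS 1 (adjusted p = 0.0862), spontaneous PBS 2 (0.0625), spontaneous cGAMP 1 (0.0956), spontaneous cGAMP 2 (0.154) or implanted PBS 1 (0.0593), with the difference between 1.07 and 1.24 in these. The spontaneous Ramp3 call was lost without spontaneous PBS 1 (adjusted p = 0.0825), spontaneous cGAMP 1 (0.0885) or spontaneous cGAMP 2 (0.0523), and the implanted call without implanted PBS 2 (0.0564). Cluster 10, where the median Ramp3 level was highest, was 0% and 2.01% of the Pecam1 cells of the implanted PBS libraries and 0.719% and 8.61% of those of the implanted cGAMP libraries, and held 23.9% of the Ramp3 level of implanted cGAMP 2. Its part in the pooled implanted rise was not tested.

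**Figure D2:**
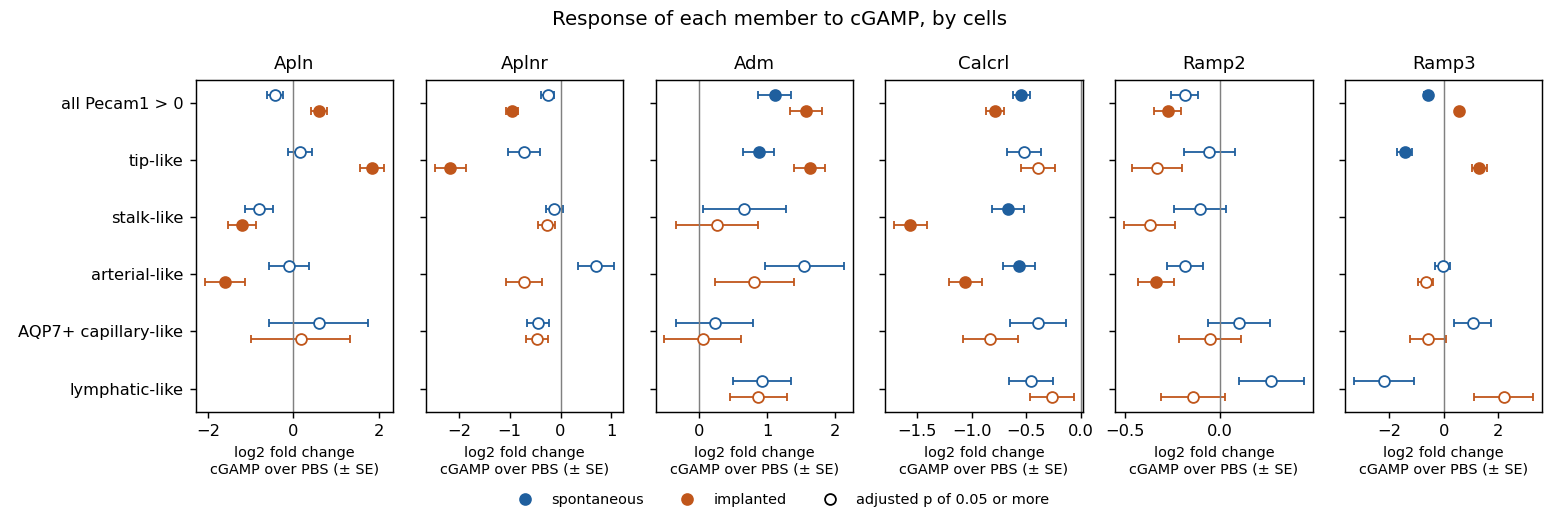
Log2 fold change of cGAMP over PBS (horizontal axis) with its SE for each member, in all Pecam1 > 0 cells and in 5 marker-named EC classes, with spontaneous and implanted tumours in separate colours and open circles where the adjusted p was 0.05 or more. Calcrl points lay below 0 in every class, whereas Ramp3 points of tip-like cells lay on opposite sides of 0 in the 2 tumour types.

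To set the libraries at 1 depth, each cell was drawn down to 2000 UMIs and cells under that were left out, which removed 37.9% of the Pecam1 cells of implanted cGAMP 1. At this depth Adm was found in 3.0% and 4.2% of spontaneous PBS cells, 8.0% and 6.6% of spontaneous cGAMP cells, 4.6% and 3.3% of implanted PBS cells and 9.0% and 11.3% of implanted cGAMP cells. Calcrl was found in 29.2% and 29.8%, 22.7% and 22.3%, 29.7% and 29.5%, and 18.5% and 18.2% of cells in the same order. Aplnr was found in 43.0% and 35.6%, 31.2% and 36.5%, 27.7% and 25.0%, and 18.2% and 16.3%. For Adm and Calcrl the cGAMP libraries of each tumour type lay apart from its PBS libraries, as they did in CPM, and for Aplnr only those of implanted tumours did. For Apln the share was 12.6% and 10.0% of implanted PBS and 10.9% and 11.2% of implanted cGAMP cells, so its implanted rise in CPM was not a rise in the share of cells with a UMI.

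Free RNA in droplets can add a background to such shares, and cells with no Pecam1 UMI were used to gauge it. Free RNA, mixed droplets and expression of their own were not told apart in these cells. Among 295 cells with no Pecam1 UMI and UMIs of at least 2 epithelial markers (median 1554 UMIs, 97 with 2000 or more), Ramp3 was found in 8.25%, Apln in 7.22%, Adm in 4.12%, Aplnr in 6.19%, Calcrl in 11.3% and Ramp2 in 29.9% at 2000 UMIs. Over all Pecam1 cells (median 11125 UMIs) the shares were 8.07%, 10.0%, 5.98%, 28.9%, 25.3% and 71.1%. The pooled Ramp3 share was thus at the level of these epithelial-marker cells (the epithelial background below), and those of Apln and Adm little above it. Among 115 Pecam1-negative cells with at least 3 mural markers (median 7506 UMIs, 93 with 2000 or more) the shares were 1.08% for Ramp3, 0% for Apln, 4.30% for Adm, 1.08% for Aplnr, 4.30% for Calcrl and 4.30% for Ramp2. The 0 of 93 cells for Apln allows a share of cells with a UMI of up to 3.23% (3 of 93), for counting error only. For Ramp3 and Apln the mural-marker cells thus gave a lower comparison level than the epithelial background. So did the lymphatic-like cells named below, with Ramp3 in 0.575% and Apln in 0.287% at 2000 UMIs. The epithelial background was thus not a level that all cells shared.

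**Figure D3:**
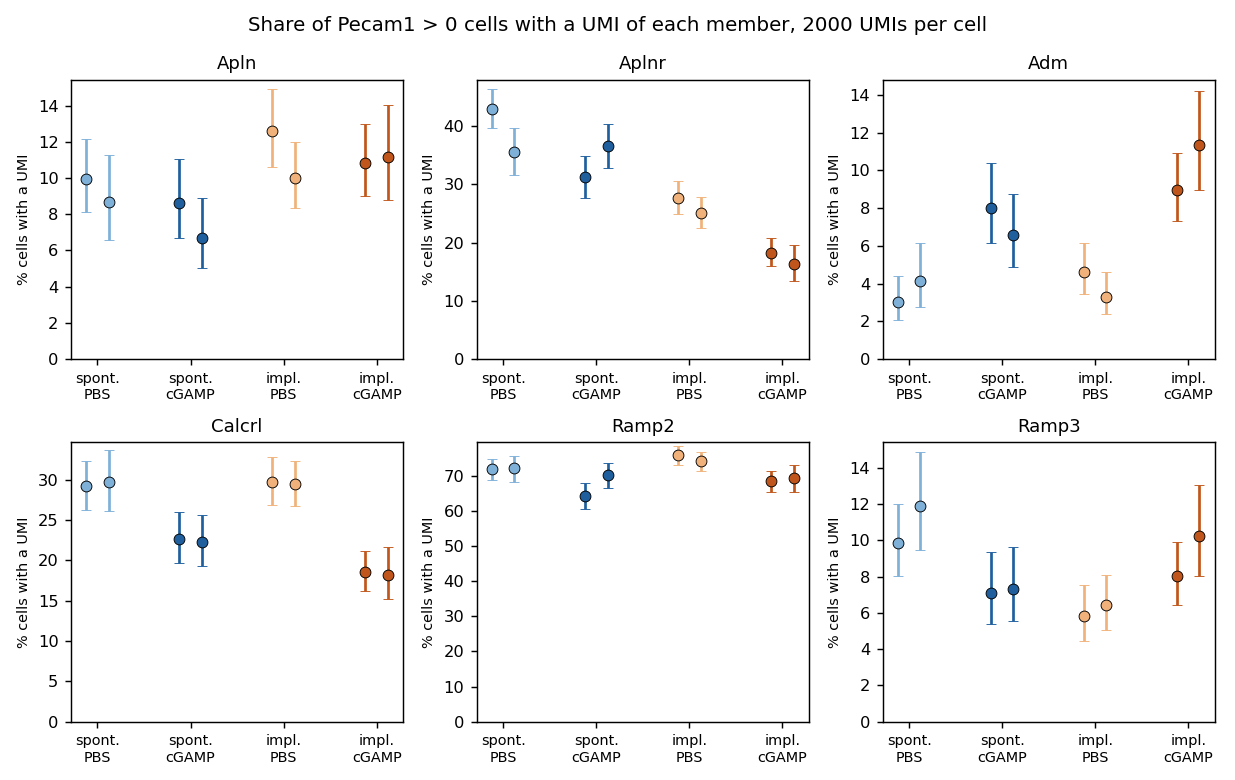
Share of Pecam1 > 0 cells with a UMI of each member after drawing every cell to 2000 UMIs, in percent, with 1 point per library and 95% Wilson intervals. Adm shares were 6.6% to 11.3% in the cGAMP libraries and 3.0% to 4.6% in the PBS libraries, and Calcrl shares were 18.2% to 22.7% against 29.2% to 29.8%.

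The tumour types were next compared under the same injection. After PBS, 1 of the 6 members was called, beside 7.83% of all genes, and after cGAMP 4 of the 6, beside 13.8%. Aplnr was the member called in both, with 226 ± 10.6 CPM (mean ± SD, n = 2) in implanted against 349 ± 49.4 CPM in spontaneous PBS libraries (log2FC -0.62, SE 0.12, limma adjusted p = 0.017) and 116 ± 14.3 against 291 ± 31.7 CPM after cGAMP (-1.32, SE 0.12, adjusted p = 0.00116). After cGAMP, implanted tumours also had more Apln (124 ± 16.3 against 63.2 ± 11.7 CPM, log2FC 0.97, SE 0.18, adjusted p = 0.011), more Ramp3 (80.5 ± 11.9 against 47.9 ± 1.93 CPM, log2FC 0.73, SE 0.12, adjusted p = 0.0056) and less Calcrl (107 ± 4.76 against 133 ± 6.19 CPM, log2FC -0.32, SE 0.08, adjusted p = 0.0313). The Adm value after cGAMP was 0.81 (SE 0.24, adjusted p = 0.0513), and Ramp2 was at 653 ± 37.9 against 665 ± 11.3 CPM (log2FC -0.03, adjusted p = 0.832). These comparisons share libraries with the responses above and are not independent of them.

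Several of these calls turned on 1 library or on the processing. The Aplnr difference after PBS was lost without spontaneous PBS 1 (-0.48, limma adjusted p = 0.0896), implanted PBS 1 (-0.67, 0.0762) or implanted PBS 2 (-0.57, 0.102), and with no filter on low values (-0.62, 0.0733), whereas the one after cGAMP held throughout. The Apln call was lost without spontaneous cGAMP 2 (0.78, adjusted p = 0.11) and with no filter (0.97, 0.0517). The Calcrl call was lost without spontaneous cGAMP 1 (-0.36, adjusted p = 0.0784), spontaneous cGAMP 2 (-0.27, 0.198) or implanted cGAMP 2 (-0.27, 0.0862). It was also lost with median-of-ratios scaling (-0.23, adjusted p = 0.0895), in all deposited cells (-0.23, 0.109), in cells drawn to 2000 UMIs (-0.31, 0.114) and with no filter (-0.32, 0.0506). The Ramp3 call was lost without spontaneous cGAMP 2 (0.77, adjusted p = 0.0555), outside the shallow cluster (0.44, 0.124), with summed UMIs (0.61, 0.0873) and in cells drawn to 2000 UMIs (0.56, 0.0807).

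To see which vessel cells carried the members, the 8 libraries were integrated and clustered without the 6 members and without the genes that were at least 2-fold higher after cGAMP, and clusters were named from marker lists. Of 14 clusters, cluster 4 was tip-like (810 cells; Pgf, Trp53i11 and Nos2 led it by fold), clusters 2 and 9 were stalk-like (936 and 189 cells), clusters 3 and 5 arterial-like (888 and 569 cells), cluster 8 AQP7+ capillary-like (281 cells), cluster 6 proliferative-like (421 cells) and clusters 7 and 13 lymphatic-like (298 and 63 cells). Clusters 11 and 12 were mural-like and epithelial tumour-like (113 and 91 cells). Cluster 0 stayed unnamed: its 1248 cells had a median of 1569 UMIs, 554 came from implanted cGAMP 1, and Spp1, Wfdc18 and the casein gene Csn3 led it. Cluster 1 (1117 cells, led by Gm26917, Ptn and Robo1) and cluster 10 (135 cells, led by Enpp2) also stayed unnamed. A fold threshold on markers, set after the data were seen, kept cluster 1 out of the tip-like class. The levels by cluster are a description, since the clusters were made from the same cells, and each is the median over libraries with at least 15 cells of the cluster.

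Adm was concentrated in lymphatic-like cluster 7, at 336 CPM (range over libraries 140.5 to 517), and in tip-like cells, at 148 CPM (97.3 to 494). It was at 29.7 CPM in AQP7+ cells, 6.02 CPM in stalk-like cluster 2, and 4.13 and 3.30 CPM in arterial-like clusters 3 and 5. Lymphatic-like cluster 7 and tip-like cells overlapped in range, and each lay above every library of the stalk-like and arterial-like clusters. Tip-like cells held 28.9% to 59.8% of the Adm level of a library and lymphatic-like cluster 7 another 11.1% to 38.9%. In lymphatic-like cluster 13, of which 1 library had enough cells, Adm was at 11.8 CPM.

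Apln was highest in tip-like cells, at 227 CPM (111 to 673), followed by proliferative-like cells at 168 CPM (60.2 to 202) and cluster 1 at 122 CPM (51.1 to 198), and the ranges of these neighbours overlapped. Its median was 27.4 CPM in stalk-like cluster 2, 0.577 CPM in arterial-like cluster 5 and 0 in lymphatic-like cluster 7, where the highest library had 2.79 CPM. Tip-like cells held 15.5% to 64.4% of the Apln level of a library, and shallow cluster 0 held 42.1% in implanted cGAMP 1. Aplnr followed another order, with 461 CPM in cluster 1 (167 to 616), 363 CPM in stalk-like cluster 2 (162 to 512), 358 CPM in proliferative-like (203 to 619), 313 CPM in tip-like (34.7 to 533) and 304 CPM in AQP7+ cells (264 to 446), none of which separated from its neighbour. It fell to 58.7 CPM in arterial-like cluster 3 and 1.64 CPM in arterial-like cluster 5, and lymphatic-like cells were at a median of 0. Both apelin genes were thus at a median of 0 in lymphatic-like cluster 7, where the median Adm level was highest.

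Calcrl was highest in stalk-like cluster 9, led by Tmem108 and Ncam1, at 472 CPM (374 to 605), above the range of every other cluster. It lay at 203 CPM in lymphatic-like cluster 7, 200 CPM in cluster 1, 190 CPM in stalk-like cluster 2 and 154 CPM in arterial-like cluster 3, with overlapping ranges, and at 112 CPM in tip-like (80.3 to 168) and 34.6 CPM in arterial-like cluster 5 (17.2 to 46.7). Ramp2 varied least, from 578 CPM in tip-like cells to 1067 CPM in stalk-like cluster 9 among the EC clusters seen in more than 1 library, with 349 CPM in mural-like cells. Ramp3 was at 195 CPM in cluster 10 (120 to 247) and 145 CPM in cluster 1 (97.7 to 181), at 64.2 CPM in arterial-like cluster 3 (35.3 to 108), 61.6 CPM in proliferative-like and 49.4 CPM in tip-like cells (16.3 to 151), and at 2.64 CPM in stalk-like cluster 2 and 1.64 CPM in lymphatic-like cluster 7. Among the clusters highest in median Calcrl, stalk-like cluster 9 and lymphatic-like cluster 7 had Ramp3 at 4.19 and 1.64 CPM. Cluster 1, near cluster 7 in Calcrl, had Ramp3 at 145 CPM. Values of cluster 9 rest on 4 libraries, mostly of the PBS groups. At 2000 UMIs Ramp3 was found in 25.2% of cluster 10 and 18.0% of cluster 1 cells, above the epithelial background of 8.25%, and in 0.871% of stalk-like cluster 2 cells, below it.

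**Figure D4:**
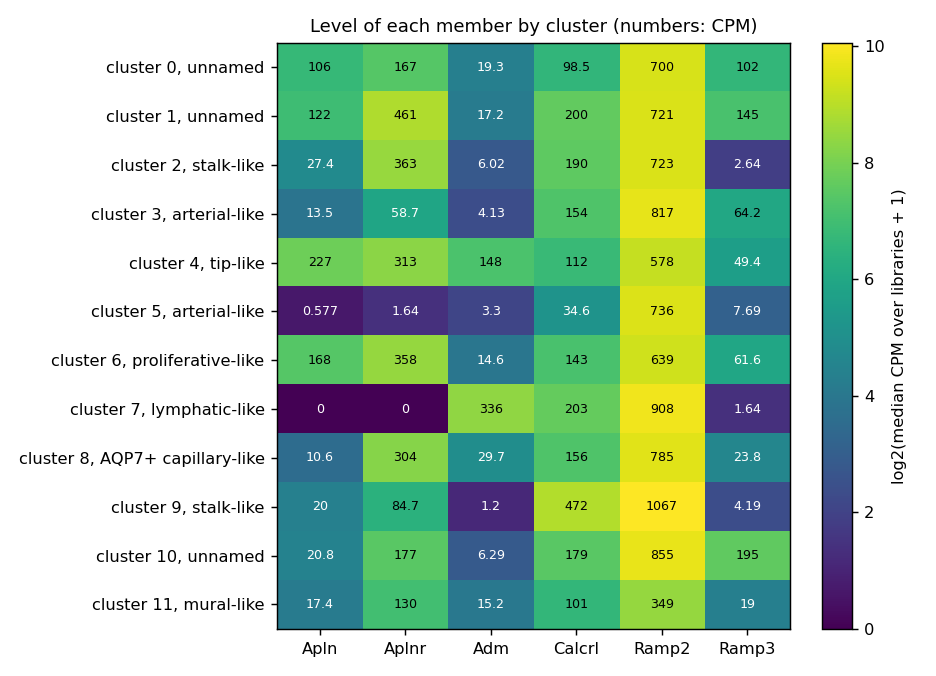
Level of each member (columns) in the 12 clusters seen in at least 3 libraries (rows), coloured by log2 of the median CPM over libraries plus 1 and printed as the median CPM. Adm stands out in lymphatic-like cluster 7 (336 CPM) and tip-like cluster 4 (148 CPM), Apln and Aplnr are at 0 in lymphatic-like cluster 7, and Ramp2 is high throughout.

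Within a class, each library's mean over the cells of that class was fitted in the same way, for 5 classes. Over these classes, member calls after cGAMP numbered 4 in spontaneous and 9 in implanted tumours. The background was 7.06% and 17.8% of genes in tip-like cells, 5.18% and 10.5% in stalk-like, 5.01% and 10.8% in arterial-like, 1.41% and 1.31% in AQP7+ and 2.25% and 3.16% in lymphatic-like cells, spontaneous first. Proliferative-like cells were not tested, since 1 library had too few. The test of the difference of responses within classes was added after the class responses had been seen.

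Apln and Aplnr did not pass the filter on low values in lymphatic-like cells. Among the other classes tested, the log2FC of each in implanted tumours was largest in size in tip-like cells. Apln was at 167 and 214 CPM in spontaneous PBS, 273 and 164 CPM in spontaneous cGAMP, 241 and 111 CPM in implanted PBS, and 520 and 673 CPM in implanted cGAMP libraries. The implanted cGAMP libraries were the highest of all, while the spontaneous groups overlapped. The log2FC was 1.85 (SE 0.28, limma adjusted p = 0.00028) in implanted and 0.16 (SE 0.28, adjusted p = 0.811) in spontaneous tumours, with a difference of 1.68 (SE 0.40, adjusted p = 0.0547). Aplnr in the same cells was at 532 and 533 CPM, then 304 and 345 CPM, in spontaneous tumours, and at 223 and 321 CPM, then 98.5 and 34.7 CPM, in implanted tumours. It fell by 2.17 (SE 0.31, adjusted p = 0.000153) in implanted tumours, and the spontaneous value of -0.72 was not called (SE 0.31, adjusted p = 0.196). The spontaneous groups did not overlap. The ligand rose while its receptor fell in the tip-like cells of implanted tumours, and both calls held under every alternative fitted within classes.

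Adm in tip-like cells was at 97.3 and 101 CPM in spontaneous PBS, 231 and 145 CPM in spontaneous cGAMP, 150.4 and 109 CPM in implanted PBS, and 319 and 494 CPM in implanted cGAMP libraries. Groups did not overlap in either tumour type. The log2FC was 0.88 (SE 0.23, limma adjusted p = 0.0265) in spontaneous and 1.62 (SE 0.23, adjusted p = 0.000123) in implanted tumours, and their difference was not called (0.74, adjusted p = 0.319). The spontaneous call was lost without spontaneous PBS 1 (0.86, adjusted p = 0.142), spontaneous PBS 2 (0.90, 0.11) or spontaneous cGAMP 1 (0.54, 0.309), with summed UMIs (1.01, 0.0521) and with no filter on low values (0.88, 0.114). At 2000 UMIs Adm was found in 13.6% and 14.1% of tip-like cells, then 30.1% and 18.8%, in spontaneous tumours, and in 20.8% and 12.5%, then 32.2% and 46.5%, in implanted tumours. These shares lay above the epithelial background in every library.

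Ramp3 in tip-like cells was at 59.0 and 51.1 CPM in spontaneous PBS, 23.6 and 16.3 CPM in spontaneous cGAMP, 40.7 and 47.6 CPM in implanted PBS, and 79.7 and 151 CPM in implanted cGAMP libraries. The spontaneous cGAMP pair was the lowest and the implanted cGAMP pair the highest of the 4. It fell by 1.44 (SE 0.27, limma adjusted p = 0.00306) in spontaneous tumours and rose by 1.30 (SE 0.27, adjusted p = 0.00357) in implanted tumours, and the difference was 2.74 (SE 0.38, adjusted p = 0.00162), beside 1.23% of genes. The difference kept its call without any 1 library, at 2.28 to 3.19. The spontaneous call was lost without spontaneous cGAMP 2 (-1.19, adjusted p = 0.0565) and the implanted call without implanted cGAMP 2 (0.84, adjusted p = 0.0679). With UMIs summed over cells the values were -1.44 (adjusted p = 0.0634), 1.24 (0.063) and 2.69 (0.0698). The tip-like cells numbered 72 to 120 per library and held 33 to 307 Ramp3 UMIs. At 2000 UMIs Ramp3 was found in 7.77% and 12.8%, then 5.31% and 6.93%, of these cells in spontaneous tumours, and in 5% and 7.69%, then 11.3% and 19.7%, in implanted tumours, so that part of the libraries lay under the epithelial background of 8.25%. All lay above the 1.08% of the mural-marker cells. Not every class of implanted tumours showed the rise. Mean Ramp3 went from 31.7 after PBS to 19.2 CPM after cGAMP in arterial-like cells (log2FC -0.66, limma adjusted p = 0.152). In AQP7+ cells it went from 28.1 to 18.6 CPM (-0.58, adjusted p = 0.856). In proliferative-like cells, not tested, it went from 70.1 to 19.8 CPM. It was higher after cGAMP in lymphatic-like cells (0.557 to 5.64 CPM, 2.19, adjusted p = 0.483). In stalk-like cells, not tested, it went from 2.09 to 4.65 CPM.

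**Figure D5:**
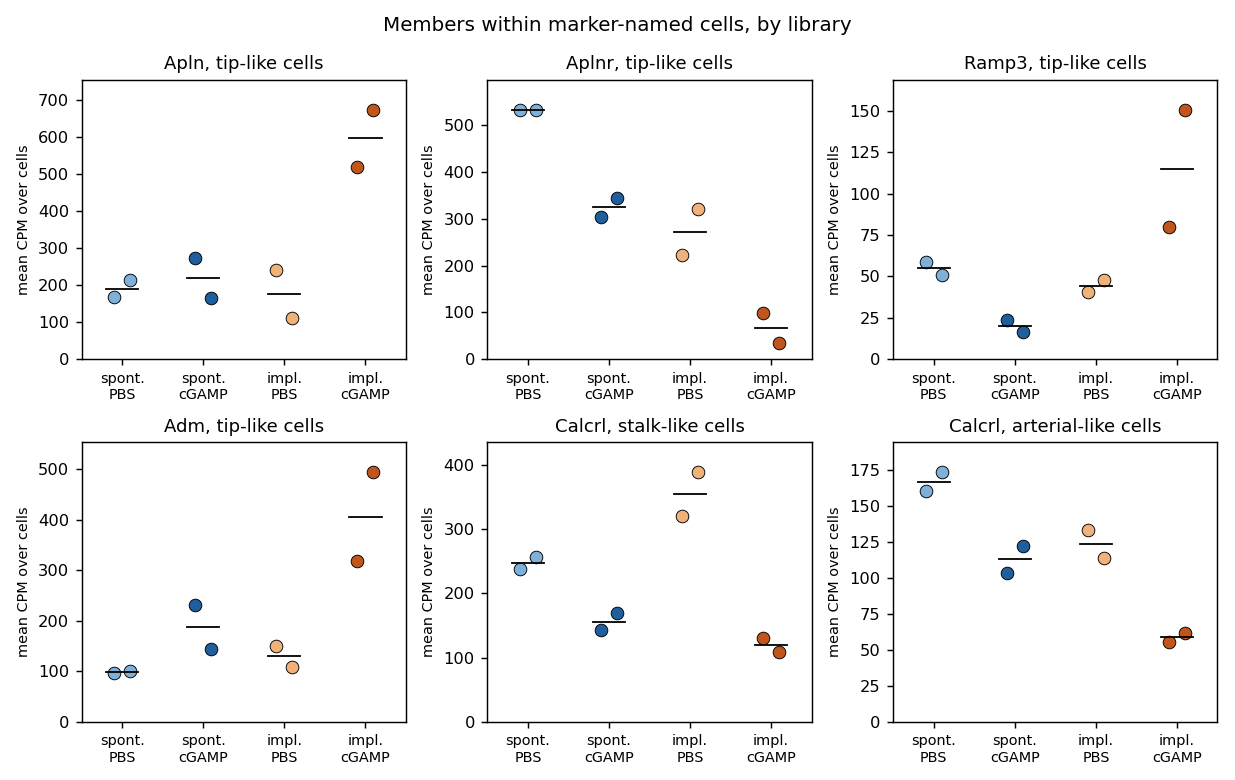
Mean CPM of Apln, Aplnr, Ramp3 and Adm over tip-like cells and of Calcrl over stalk-like and arterial-like cells, with 1 point per library and a line at the mean of each group. In tip-like cells of implanted tumours, Apln was at 520 and 673 CPM and Aplnr at 98.5 and 34.7 CPM after cGAMP, against 241 and 111 CPM and 223 and 321 CPM after PBS.

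Calcrl fell in stalk-like cells by 0.66 (SE 0.15, limma adjusted p = 0.0164) in spontaneous and by 1.56 (SE 0.15, adjusted p = 1.85e-05) in implanted tumours, and in arterial-like cells by 0.56 (SE 0.15, adjusted p = 0.0437) and 1.06 (SE 0.15, adjusted p = 0.000315). The difference of the falls was not called in either (stalk-like -0.90, adjusted p = 0.0674, beside 1.03% of genes; no member was called in the arterial-like difference, beside 0.0584%). The implanted calls held under every alternative fitted within classes. The spontaneous call in stalk-like cells was lost without spontaneous PBS 1 (-0.72, adjusted p = 0.0814), spontaneous PBS 2 (-0.61, 0.178) or spontaneous cGAMP 1 (-0.54, 0.179) and with no filter on low values (-0.66, 0.0564). The one in arterial-like cells was lost without any 1 of the 4 spontaneous libraries (-0.44 to -0.68, adjusted p 0.0656 to 0.281) and without implanted PBS 1 (0.0654) or implanted PBS 2 (0.062), and with median-of-ratios scaling (-0.48, 0.0954) or no filter (-0.56, 0.0783).

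The stalk-like class changed in makeup, since cluster 9, where Calcrl was highest, held 44 and 75 cells in implanted PBS but 16 and 6 in implanted cGAMP libraries. In the arterial-like class of implanted tumours, cluster 3 was 12.8% and 15.5% of Pecam1 cells after PBS and 5.82% and 9.93% after cGAMP, while cluster 5, lower in median Calcrl and Apln, was 7.3% and 10.5%, then 9.09% and 11.1%. The part of these shares in the class values was not tested. Within cluster 2 alone, Calcrl was at 215 and 240.3 CPM in spontaneous PBS, 138 and 165 CPM in spontaneous cGAMP, 243 and 265 CPM in implanted PBS, and 111 and 103 CPM in implanted cGAMP libraries. Within arterial-like cluster 3 alone it was at 218 and 218 CPM, 141 and 147 CPM, 182 and 162 CPM, and 115 and 95.8 CPM in the same order. In both clusters the cGAMP libraries lay below the PBS libraries of their tumour type with no overlap.

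Apln went the other way in stalk-like and arterial-like cells of implanted tumours, where it fell by 1.20 (SE 0.32, limma adjusted p = 0.0305) and 1.61 (SE 0.47, adjusted p = 0.0444). In stalk-like cluster 2 it was at 57.2 and 51.2 CPM after PBS and at 11.2 and 25.9 CPM after cGAMP, and in arterial-like cluster 3 at 31.7 and 31.7 CPM and at 23.2 and 5.72 CPM. In both clusters alone the implanted groups did not overlap. Each call turned on single libraries and on the processing. The stalk-like one was lost without implanted PBS 1 (-1.08, adjusted p = 0.209), implanted PBS 2 (-1.32, 0.139), implanted cGAMP 1 (-0.60, 0.144), spontaneous PBS 1 (0.0551) or spontaneous PBS 2 (0.0543), and with no filter on low values (0.0982). The arterial-like one was lost without implanted PBS 1 (-1.51, 0.259), implanted PBS 2 (-1.70, 0.168), implanted cGAMP 2 (-1.08, 0.225) or spontaneous cGAMP 2 (0.051), with median-of-ratios scaling (-1.48, 0.0693), with a pseudocount of 0.1 CPM (-1.76, 0.0537) and with no filter (0.136). Ramp2 fell in arterial-like cells of implanted tumours by 0.33 (SE 0.09, adjusted p = 0.0379), which was lost with median-of-ratios scaling (-0.19, adjusted p = 0.271), with summed UMIs (-0.27, 0.0618), with no filter (-0.33, 0.0834) and without implanted PBS 1 (-0.31, 0.207), implanted PBS 2 (-0.36, 0.124) or implanted cGAMP 1 (-0.27, 0.171).

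No member was called in AQP7+ or lymphatic-like cells, nor in the difference of responses there (0.00939% and 0.446% of genes). In lymphatic-like cells Adm was at 83.0 and 259 CPM in spontaneous PBS, 210 and 374 CPM in spontaneous cGAMP, 163 and 278 CPM in implanted PBS, and 441 and 347 CPM in implanted cGAMP libraries, from 23 to 87 cells each. The spontaneous groups overlapped and the implanted groups did not. The log2FC was 0.93 (limma adjusted p = 0.302) and 0.87 (adjusted p = 0.453) with the mean CPM, but 1.97 (adjusted p = 0.014) and 1.65 (adjusted p = 0.039) with UMIs summed over cells.

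Co-detection was read in single cells at 2000 UMIs as the share with both genes over the product of the 2 shares, where 1 means no association. Apln and Adm were found together 2.05 to 4.67 times as often as that product in the 8 libraries. Adm and Calcrl, ligand and receptor, had ratios of 0.44 to 0.92, and Calcrl and Ramp2 of 1.01 to 1.09. For Apln and Aplnr the ratio was 1.24 and 1.23 in spontaneous PBS and 1.16 and 1.98 in implanted PBS libraries, but 0.46 and 0.83 in spontaneous cGAMP and 0.80 and 0.58 in implanted cGAMP libraries. All 4 PBS libraries lay above 1 and all 4 cGAMP libraries below it. The cGAMP ratios rested on 8 and 13 cells with both genes in spontaneous and 15 and 6 in implanted tumours. Those of Adm and Calcrl rested on 3 to 14 such cells per library. The counting error of the ratios was not tested. No doublet caller was run, so pairs of cells in 1 droplet can add to these ratios. They are a description over cells, and mix cell types with what happens within a type.

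The genes with the pattern most like each member were ranked by Pearson's r over 77 pairs of library and cluster, among 8430 genes, where points of 1 library share its depth and injection. Apln was most like Pkm (r = 0.77) and Smox (0.77), and Aplnr most like Fam167b (0.89), Col15a1 (0.89) and Vwa1 (0.87). Adm was most like Galnt1 (0.83), Mpp6 (0.79) and Smad1 (0.78), and Calcrl most like Tshz2 (0.79), Nrp2 (0.78), a co-receptor of vascular endothelial growth factors, and Fli1 (0.76). Ramp3 was most like Igfbp3 (0.84), Esm1 (0.78), a tip cell gene, and BC028528 (0.78), whereas the best match of Ramp2 was lower (Cpne8, 0.66; Lmcd1, 0.64; Lfng, 0.62). Apln and Aplnr had an r of 0.71 with each other and Apln and Adm of 0.14.

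Related genes were counted in 4 lists, to be read beside the 12.7% of all genes called after cGAMP in spontaneous and 25% in implanted tumours, and beside the 7.83% after PBS and 13.8% after cGAMP called between tumour types. Of 14 genes of related peptides, partners and processing enzymes, 7 were tested, and Apela, Adm2, Calca, Calcb, Calcr and Mme were among those that did not pass the filter. In spontaneous tumours 1 was higher and 1 lower after cGAMP, and in implanted tumours 0 were higher and 2 lower, with medians of 0.19 and 0.22 beside -0.10 for all genes. The called genes were thus 2 of 7 in each tumour type. Pam, the enzyme that amidates adrenomedullin and so activates it, was at 122 and 132 CPM in spontaneous PBS and 53.8 and 71.4 CPM in spontaneous cGAMP libraries, and at 144 and 176 CPM, then 88.3 and 56.9 CPM, in implanted tumours. All 4 PBS libraries lay above the cGAMP libraries, and it fell by 1.02 (SE 0.20, limma adjusted p = 0.0106) and by 1.16 (SE 0.20, adjusted p = 0.00311). Pam thus fell in both tumour types while Adm rose. Crcp, a component of the calcitonin gene-related peptide receptor, rose in spontaneous tumours (0.44, adjusted p = 0.0333), and Ackr3, a decoy receptor for adrenomedullin, was higher in implanted than spontaneous tumours after cGAMP (0.55, adjusted p = 0.0335).

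Of 23 signal transduction genes, 21 were tested. In spontaneous tumours 0 were higher and 2 lower, and in implanted tumours 1 was higher and 4 lower, which is near the background of 12.7% and 25%. The medians were -0.09 and -0.04. Gna13, a G protein alpha subunit, rose in implanted tumours (0.63, SE 0.12, limma adjusted p = 0.0051). Gnas, which couples Calcrl to cyclic AMP, fell there (-0.49, SE 0.07, adjusted p = 0.00126), as did Gnaq (-0.47, SE 0.08, adjusted p = 0.00315). In spontaneous tumours the lower genes were Gnaq (-0.44, adjusted p = 0.00746) and Pde4d, a cyclic AMP phosphodiesterase (-0.61, adjusted p = 0.00861). Between tumour types, 2 were lower in implanted tumours after PBS (Creb1 and Pde4d) and 3 after cGAMP (Gnas, Gnaq and Rapgef3), with 0 higher.

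Of 14 hypoxia-responsive genes, 13 were tested; 2 were higher and 0 lower in spontaneous, and 5 higher and 0 lower in implanted tumours, with a median of 0.15 in each, beside 12.7% and 25% of all genes called. Aldoa and Pgk1, both of glycolysis, rose in spontaneous (0.54 and 0.48, limma adjusted p = 0.00179 and 0.0064) and implanted tumours (0.54 and 0.56, adjusted p = 0.00105 and 0.00151). Vegfa, the main angiogenic growth factor, was at 16.7 and 10.4 CPM, then 20.6 and 13.0 CPM, in spontaneous tumours, and at 8.17 and 18.0 CPM, then 40.8 and 41.9 CPM, in implanted tumours. Only the implanted cGAMP pair stood apart (log2FC 1.68, SE 0.34, adjusted p = 0.0062). Slc2a1, the glucose transporter, rose in implanted tumours by 1.14 (SE 0.18, adjusted p = 0.00172) and Bnip3 by 0.79 (adjusted p = 0.00473). Between tumour types 2 were higher in implanted after PBS and 5 after cGAMP, with 0 lower.

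Of 11 genes of other vasoactive systems, 10 were tested; 2 were higher and 0 lower in spontaneous tumours, and 3 were higher and 2 lower in implanted tumours, with medians of -0.10 and -0.24, beside 12.7% and 25% of all genes called. Ednra, an endothelin receptor of mural cells, was at 1.42 and 5.87 CPM in spontaneous PBS and 18.9 and 13.9 CPM in spontaneous cGAMP libraries. In implanted tumours it was at 0.292 and 0.195 CPM after PBS and 5.65 and 3.37 CPM after cGAMP. It rose by 2.08 (SE 0.48, limma adjusted p = 0.0221) and by 2.12 (SE 0.48, adjusted p = 0.0105). The implanted PBS levels were near 0, so that fold depends on the pseudocount. The summed level of 10 mural markers, none at 0, was 223 and 630 CPM in spontaneous PBS and 731 and 977 CPM in spontaneous cGAMP libraries, and 220 and 235 CPM, then 191 and 401 CPM, in implanted tumours, and its part in the Ednra values was not tested. Ece1, which activates endothelin, rose in both (0.46, adjusted p = 0.0189, and 0.38, adjusted p = 0.0216), Bdkrb2 rose in implanted tumours (0.78, adjusted p = 0.00252) and Npr1, a natriuretic peptide receptor, fell there (-0.69, adjusted p = 0.00953). Between tumour types, Edn1, the endothelin gene, was higher and Ednrb lower in implanted tumours, both after PBS (1.20 and -1.14, adjusted p = 0.00392 and 0.00243) and after cGAMP (0.80 and -1.08, adjusted p = 0.0185 and 0.00365). No gene of the 4 lists was called in the difference of the responses.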

How the data were processed

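Cells were dissociated from tumours, sorted as live CD45- CD31+ ECs and sequenced with 10x Chromium 3′ chemistry. The authors aligned reads to mm10 with Cell Ranger 3.0.0 and used Seurat 3.1.1. They removed cells with fewer than 500 genes or over 10% mitochondrial reads and genes found in fewer than 3 cells. The deposited natural log values are ln(1 + UMIs × 10000 / cell total) per gene and cell. UMIs were worked back from them, and 100% of values came out whole within 0.01.

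From these, each cell was scaled to CPM and averaged per library over cells with a Pecam1 UMI. Genes reaching 5 CPM in 2 or more libraries were tested with limma 3.58.1 in R 4.3.3 on log2(CPM + 1), with 1 mean per group and a mean-variance trend, and Benjamini-Hochberg adjustment over all genes tested. The scripts were tested on simulated data with known changes in the implanted comparison over 10424 genes: 69 of 100 genes changed by 1 log2 unit and 93 of 100 changed by 2 were called, with 11 unchanged genes called. Libraries were integrated with Seurat 5.3.0 on 2500 features and 30 principal components and clustered at resolution 0.5. A cluster took a name where at least 3 markers of a list were found in 20% of its cells and raised by 0.5 log2 units. The mean over the list had to reach 0.5 as well. No other list could have more markers among the 10 leading genes. Clusters under 0.333 of the median depth of their libraries needed a marker among those genes. No doublet caller was run, and no step against doublets is given in the sources used here. Class values needed at least 15 cells in a library.

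Groups came from the labels. With 2 libraries a group, precision is limited. The members and lists were chosen with earlier results of these data known. Genes named besides the members were, by rule, up to 3 called genes per list and comparison with the largest change, and the 3 with the highest r for each member, except that some are not reported here. Replicate numbers were not used to pair libraries. The deviations of same-numbered libraries correlated at -0.22 to 0.13, which cannot exclude that they shared a batch. Alternatives were the pseudocount, the filter, median-of-ratios scaling, summed UMIs, other cell sets, cells drawn to 2000 UMIs, a replicate block, and each library left out. Other cell sets and cells drawn to 2000 UMIs were fitted over pooled cells only, not within classes. Class levels were also read at resolution 1.0, and in cells with at least 2 markers without clustering. At resolution 1.0 median levels became 4.34 (from 40.1) CPM for arterial-like Aplnr and 0.80 (from 23.8) CPM for AQP7+ Ramp3. Stalk-like Calcrl stayed near, at 204 (from 203) CPM. Cells with 2 tip-like markers numbered 6562 and had Apln at 91.5 CPM, against 227 CPM in the tip-like class. Columns of unmapped samples numbered 0.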

Additional observations from a re-analysis of the deposited data

Results flagged for a closer look

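The response of Ramp3 to cGAMP differed between implanted and spontaneous tumours by a test of the difference, by 1.15 on the log2 scale in all Pecam1 cells (limma adjusted p = 0.0241) and by 2.74 in tip-like cells (adjusted p = 0.00162). In each case both spontaneous cGAMP libraries lay below their PBS libraries and both implanted cGAMP libraries above theirs. As given above, the pooled call was lost outside the shallow cluster, with summed UMIs, with no filter on low values and without several of the single libraries. The tip-like call was lost with summed UMIs, and its test was added after the class responses had been seen. As also given above, the implanted Ramp3 mean was lower after cGAMP in arterial-like, AQP7+ and proliferative-like cells. Groups of 2 libraries are too small for a search for a library that stands apart within its group.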

How the results depend on the processing

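Of 78 recomputed counts of called members other than those that left out a library, 67 stayed within 1.5 times the reported count. With no filter on low values, 0 members were called in the difference of the responses, 0 between tumour types after PBS, 2 between tumour types after cGAMP and 1 within classes of spontaneous tumours. With summed UMIs 0 were called in the difference. Between tumour types after PBS, 2 were called outside the mural-like and epithelial tumour-like clusters, 2 outside proliferative-like cells and 2 in cells drawn to 2000 UMIs, where 2 were called after cGAMP. With a pseudocount of 5 CPM, 2 members were called in the difference within classes. The cause of these shifts was not tested. With single libraries left out, where the lone library was assumed to vary like the others, the counts were 1 to 3 in spontaneous and 3 to 6 in implanted tumours, 0 to 1 in their difference, 0 to 2 between tumour types after PBS, 1 to 5 after cGAMP, and within classes 1 to 7, 6 to 9 and 1 to 4. The deviations of same-numbered libraries correlated at -0.22 and 0.13 within tumour types, so the numbers were taken as names only. A replicate block left the counts at 3, 6, 1, 1 and 4, and within classes at 4 and 9, and gave 2 in place of 1 in the class difference.

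Values that turned sign were all small and uncalled, and ranges below are over single libraries left out. Apln between tumour types after PBS became 0.025 with median-of-ratios scaling, 0.014 with summed UMIs, 0.13 in cells drawn to 2000 UMIs, 0.065 outside the shallow cluster and 0.051 outside the shallow, mural-like and epithelial tumour-like clusters, with a range of -0.32 to 0.20. In the same comparison Adm ranged from -0.0094 to 0.72, and Calcrl became 0.012 with median-of-ratios scaling. Ramp2 between tumour types after cGAMP became 0.054 with median-of-ratios scaling, 0.056 with summed UMIs, 0.0065 in all deposited cells and 0.011 in cells drawn to 2000 UMIs, with a range of -0.087 to 0.032. In tip-like cells of spontaneous tumours Apln ranged from -0.20 to 0.53, and Ramp2 from -0.21 to 0.097, with 0.045 under median-of-ratios scaling. The tip-like Calcrl difference became -0.0067 with summed UMIs and ranged from -0.016 to 0.27.

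With 2 libraries a group, differences near the spread of a pair could not be resolved, and Ramp3 rested on few UMIs per tip-like cell. Implanted cGAMP 1 was shallow and carried more epithelial RNA, and cluster names rest on markers. The alternatives that left out the shallow cluster were chosen after seeing the data.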
